A study of Rattus norvegicus with 18 samples.

Results

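The genes described here encode 5 enzymes of proline synthesis and breakdown: Aldh18a1, Pycr1, Oat, Prodh and Aldh4a1. They are 5 of the 28909 rows of an RNA table from neonatal rat heart cells. Of these rows, 4 carry the gene's own name, and Prodh was found as PRODH1, a RefSeq synonym. Aldh18a1 was selected on its measured difference between the treatments in this same table, and the other 4 were added because they act in the same pathway. The levels of all 5 are therefore given as descriptions, with no test.

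Ventricular cells came from the hearts of 1-day-old wild-type SD rats, were enriched for cardiomyocytes by removing cells that attach quickly, and were kept on collagen in a low-serum medium that held sodium pyruvate, vitamin C and L-Glu. One group of 3 libraries was exposed to blebbistatin, an inhibitor of the myosin II motor, at 25 µM for 0.5 h. The other group of 3 received DMSO, its solvent, for 0.5 h. The series' design text gives the dose also as 0.25. All cells were primary cultures, and nothing in the labels ties a library to a preparation of its own, so what p-values measure here is the spread among libraries, which may be technical.

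Proline is made in mitochondria and cytosol from glutamate or ornithine. ALDH18A1, also called P5C synthase, uses ATP and NADPH to turn glutamate into pyrroline-5-carboxylate, and PYCR1 reduces that intermediate to proline. OAT joins ornithine to the same intermediate. PRODH oxidises proline back to it and passes electrons to the respiratory chain, and ALDH4A1 completes the return to glutamate. Proline is abundant in collagen, the main matrix protein made by cardiac fibroblasts.

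Values are CPM, read counts relative to the total of the library. The smallest step between values places the libraries at a depth of 59.6 to 63.3 M reads. DMSO replicate 1 stood apart: its median absolute log2 difference from the other libraries ran from 0.321 to 0.466 over 13083 rows, against 0.091 to 0.248 among the other 5. The closest libraries of all came from different groups. Blebbistatin replicate 1 and DMSO replicate 3 differed by a median of 0.091, and DMSO replicate 2 differed by 0.137 from both blebbistatin replicates 2 and 3. No 2 libraries of the same group were as close, the smallest such value being 0.174. Summed cardiomyocyte markers were at 30760 to 33700 CPM with blebbistatin and 31050 to 33830 CPM with DMSO, and summed fibroblast markers at 33620 to 38070 and 33560 to 39010 CPM, so both marker sets were abundant in both groups. In 7 lists of cell type markers and ribosomal protein genes, 0 rows passed limma's adjusted threshold, against 0.0197% of all tested rows. An unadjusted limma p under 0.05 was reached by 0 rows, against 1.51% of all tested rows. Log2 fold changes were positive for 27 of 28 tested ribosomal protein genes, 10 of 12 macrophage and 9 of 14 cardiomyocyte markers. They were positive for 4 of 8 smooth muscle and pericyte, 3 of 7 endothelial, 4 of 12 fibroblast and 0 of 4 red blood cell markers. Over all tested rows 50.4% were positive. Of the listed rows HBE1, an embryonic globin, was at 0 in every library. Set against the average of the remaining 5, DMSO replicate 1 had a mean log2 difference of -1.06 for ribosomal protein genes, -0.72 for macrophage markers, -0.53 for cardiomyocyte markers and 1.36 for red blood cell markers. Its summed red cell markers reached 184.9 CPM, against 60.1 to 69.6 CPM in the others. The part of these shifts in the levels given here was not tested. In bulk RNA, fewer cells of a type and less RNA per cell cannot be told apart.

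**Figure D1:**
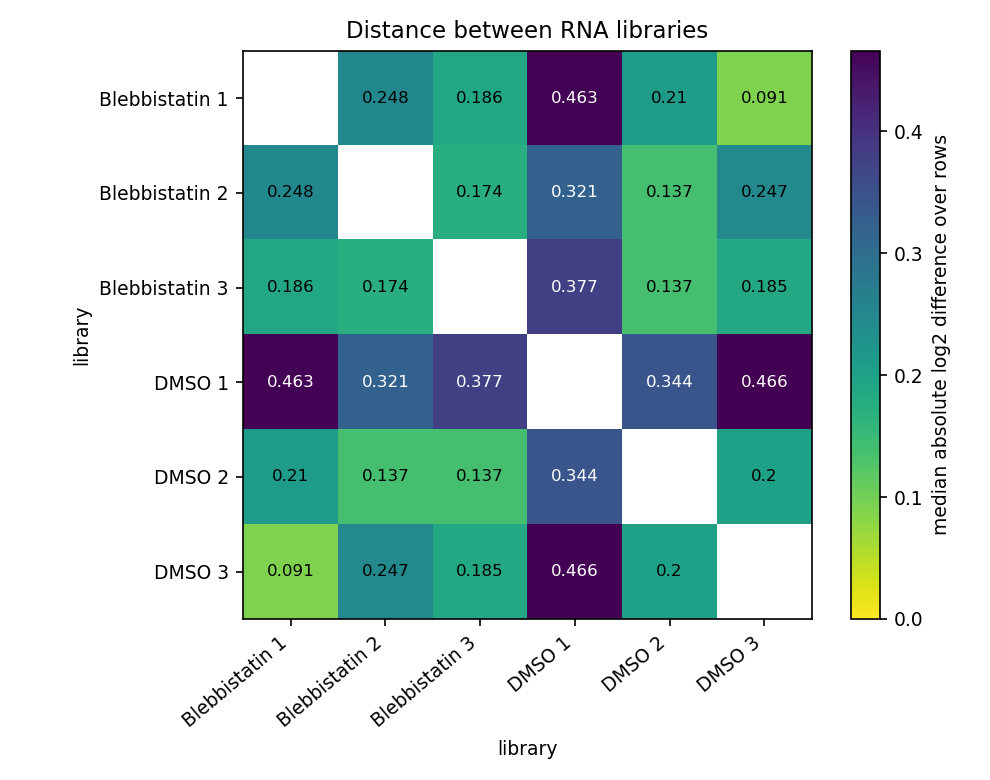
Median absolute log2 difference (CPM divided by a TMM scaling factor, plus 0.1) over 13083 rows for each pair of the 6 libraries, with blebbistatin before DMSO on both axes; darker means farther apart. The smallest value, 0.091, joins blebbistatin replicate 1 and DMSO replicate 3, and the values of DMSO replicate 1 are the highest.

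Aldh18a1, which catalyses the committed step from glutamate, was far higher with blebbistatin. It was at 99.5, 96.7 and 101.6 CPM in blebbistatin replicates 1, 2 and 3. With DMSO it was at 8.17, 24.0 and 23.8 CPM in replicates 1, 2 and 3. The groups did not overlap, and the lowest blebbistatin library lay 4.03 times above the highest DMSO library. The means were 99.3 ± 2.48 CPM with blebbistatin and 18.7 ± 9.08 CPM with DMSO (SD, n = 3 each), a log2 fold change of 2.52 ± 0.36 (SE). These levels correspond to 6115 to 6266 reads in the blebbistatin libraries and 494 to 1470 reads in the DMSO libraries.

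The blebbistatin libraries were nearly level for Aldh18a1, with a coefficient of variation of 2.5%, against 48.7% with DMSO. DMSO replicate 1 made most of that spread. Without it, the log2 fold change was 2.05, and the blebbistatin mean was 4.15 times the mean of DMSO replicates 2 and 3. In the closest pair of libraries, blebbistatin replicate 1 and DMSO replicate 3, Aldh18a1 differed by 2.05 on the log2 scale.

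Pycr1, the reductase of the last synthetic step, was at 33.0, 25.4 and 32.4 CPM in blebbistatin replicates 1 to 3, against 21.2, 27.97 and 34.2 CPM in DMSO replicates 1 to 3. The groups overlapped, with the lowest and the highest library both in the DMSO group. The log2 fold change was 0.098 ± 0.18 (SE), and it was -0.038 without DMSO replicate 1.

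Oat, the aminotransferase that feeds ornithine carbon into the pathway, was at 167.9, 155.3 and 155.7 CPM with blebbistatin. In DMSO replicates 1 to 3 it was at 124.5, 153.2 and 162.6 CPM. Only DMSO replicate 1 lay outside the blebbistatin range by more than a few CPM. The log2 fold change was 0.089 ± 0.12, and 0.019 without that library.

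On the breakdown side, Prodh (PRODH1 in the table), the first enzyme of proline oxidation, had the highest coefficient of variation of the 5 within each group, 37.4% with blebbistatin and 67.5% with DMSO. It was at 2.94, 1.42 and 1.88 CPM in blebbistatin replicates 1 to 3, and at 0.81, 1.39 and 3.11 CPM in DMSO replicates 1 to 3. Its reads numbered 90 to 182 with blebbistatin and 49 to 192 with DMSO. The groups overlapped over nearly their whole range, and the log2 fold change of 0.32 ± 0.47 was smaller than its standard error. Without DMSO replicate 1 it was -0.06.

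Aldh4a1, the dehydrogenase that returns the intermediate to glutamate, was at 32.1, 39.1 and 40.1 CPM in blebbistatin replicates 1 to 3 and at 49.3, 39.0 and 38.1 CPM in DMSO replicates 1 to 3. It was the only one of the 5 with a negative log2 fold change, -0.22 ± 0.18, and the only one highest in DMSO replicate 1. The groups overlapped, and the value was -0.057 without that library.

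Of the 5 genes, 1 had groups that did not overlap, where 6.1% of the 15204 tested rows did not; since this contrast chose Aldh18a1, nothing is read from the count. In the 2 libraries closest to each other, the other 4 genes had log2 differences of -0.065 for Pycr1, 0.034 for Oat, -0.089 for Prodh and -0.26 for Aldh4a1. Between blebbistatin replicate 2 and DMSO replicate 2 the same differences were -0.117 for Pycr1, 0.041 for Oat, 0.05 for Prodh and 0.024 for Aldh4a1. Between blebbistatin replicate 3 and DMSO replicate 2 they were 0.204 for Pycr1, 0.018 for Oat, 0.404 for Prodh and 0.035 for Aldh4a1. Oat thus differed little in all 3 pairs, while the size of the difference in Pycr1, Prodh and Aldh4a1 depended on the pair.

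**Figure D2:**
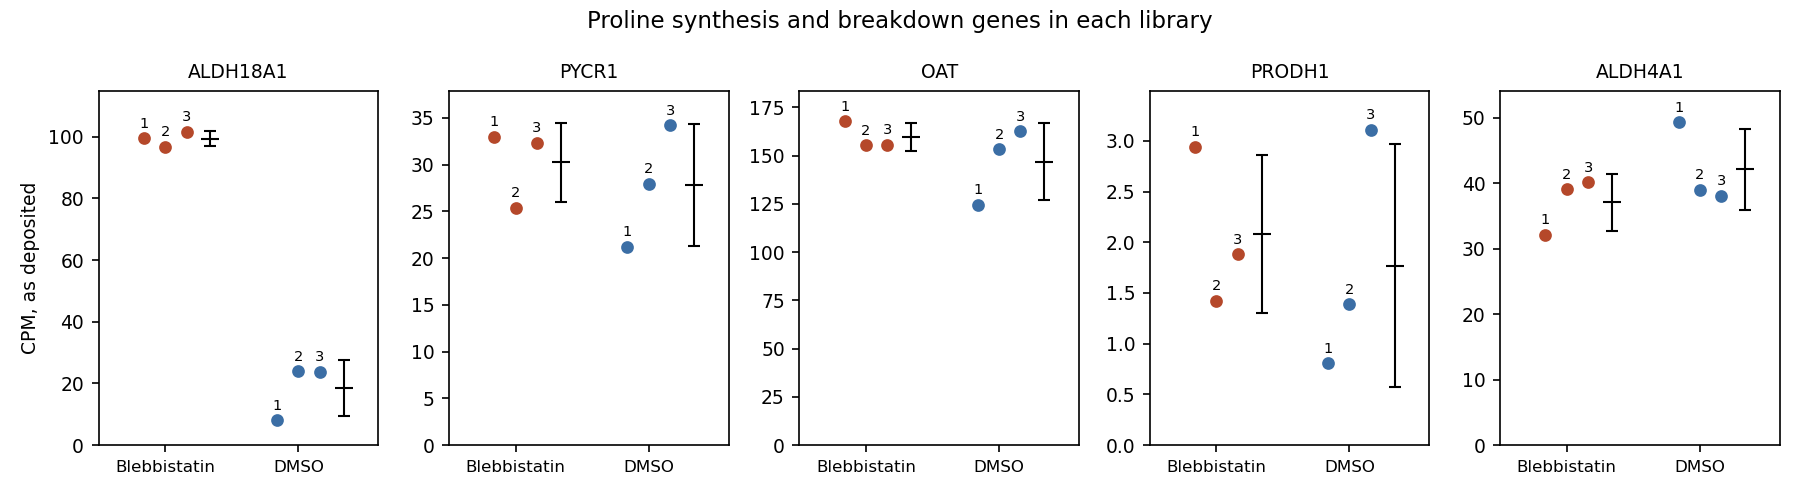
CPM as deposited (vertical axes, each starting at 0) of the 5 proline genes in the 3 blebbistatin and 3 DMSO libraries; points are libraries with their replicate numbers, and bars are means ± SD (n = 3). ALDH18A1 lies at 96.7 to 101.6 CPM with blebbistatin and 8.17 to 24.0 CPM with DMSO, and the groups overlap for the other 4.

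Pycr3, the cytosolic paralog of the reductase, was at 31.3, 27.4 and 34.5 CPM with blebbistatin and 20.8, 25.99 and 36.04 CPM with DMSO. Like Pycr1 it was lowest in DMSO replicate 1 and overlapped between the groups. Its log2 fold change was 0.16 ± 0.19, which did not pass limma's test (adjusted p = 0.991). Prodh2, the hydroxyproline dehydrogenase, was listed at 0 in 3 libraries and reached 0.162 CPM with blebbistatin and 0.194 CPM with DMSO, too low to be tested.

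Whether another row held reads that Aldh18a1 lacked with DMSO was looked at row by row. No other row carried Aldh18a1 or a synonym of it in its name. In RefSeq's newer rat assembly GRCr8, used for neighbour order only, a microRNA gene, Mir6317-1, and a long noncoding RNA gene, LOC134484024, overlap Aldh18a1. The microRNA's row was listed at 0 in all 6 libraries, and no row carried the other name. The strand setting of the counting is not given in the sources used here, so reads of overlapping genes cannot be told apart.

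Of the neighbours on one side, Pdlim1, a PDZ and LIM domain protein of actin filaments, was at 154.2, 132.0 and 142.6 CPM with blebbistatin and at 93.6, 147.3 and 158.3 CPM with DMSO. DMSO replicate 1 was its lowest library, and the groups overlapped.

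On the other side of Aldh18a1 the adjacent row had zeros. Tctn3, a tectonic protein of the ciliary transition zone, was listed at 0 in all 3 blebbistatin libraries and in DMSO replicate 1, and stood at 2.88 and 3.21 CPM in DMSO replicates 2 and 3. Entpd1, an ectonucleotidase, was at 9.83, 9.63 and 3.42 CPM with blebbistatin and 9.18, 9.2 and 9.28 CPM with DMSO. Among rows with a mean of at least 1 CPM, 140 of 13103 (1.07%) were listed at 0 in some library. The zeros of Tctn3 include DMSO replicate 1, where Aldh18a1 was lowest. The part of these zeros in the level of Aldh18a1 was not tested.

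Rows that ran opposite to Aldh18a1 were sought over the whole table. With a mean of at least 1 CPM and a Pearson r of at most -0.9 on the CPM scale over the 6 libraries, 29 rows were found. A row that had lost what Aldh18a1 gained would leave the sum of both constant. The most constant sum was with Klf6, a zinc finger factor of the early response. That sum had a coefficient of variation of 17.2%, against 75.6% for Aldh18a1 alone. The coefficient of variation of a sum also falls as the level of the added row rises, whether or not that row offsets Aldh18a1. The order of the sums therefore depends in part on that level. Klf6 was at 36.7, 38.5 and 42.2 CPM with blebbistatin and at 102.5, 81.6 and 68.0 CPM with DMSO, a mean difference of -44.9 CPM.

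The next sums were those with AABR07044711.1 (20.1%), Kalrn (30%), C7 (33.3%) and Ccn1 (CYR61 in the table; 34.7%). AABR07044711.1 has no RefSeq name and was at 87.0, 91.4 and 93.0 CPM with blebbistatin and 114.9, 116.3 and 108.3 CPM with DMSO, a mean difference of -22.7 CPM. Kalrn, a guanine nucleotide exchange factor, and C7, a complement component, differed by -9.65 and -12.9 CPM. By a measure chosen after the values were seen, 5 rows were lower without overlap by at least 0.8 times the 80.6 CPM by which the mean of Aldh18a1 was higher: Cemip, Cited2, Ccn1, Egr1 and Plk2. Plk2, a polo-like kinase, was at 209.3, 215.6 and 214.4 CPM with blebbistatin and 296.0, 362.6 and 358.9 CPM with DMSO. Without DMSO replicate 1 the most constant sum was with Ywhag, a 14-3-3 protein, at 1.55%. Ywhag was at 308.6, 323.8 and 317.4 CPM with blebbistatin and at 260.2, 384.1 and 384.4 CPM with DMSO, so it was lowest in the DMSO library where Aldh18a1 was lowest too. The table has 1 value per gene, so a change spread over several rows, of 1 transcript, or into reads not assigned to a row was not analysed here.

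**Figure D3:**
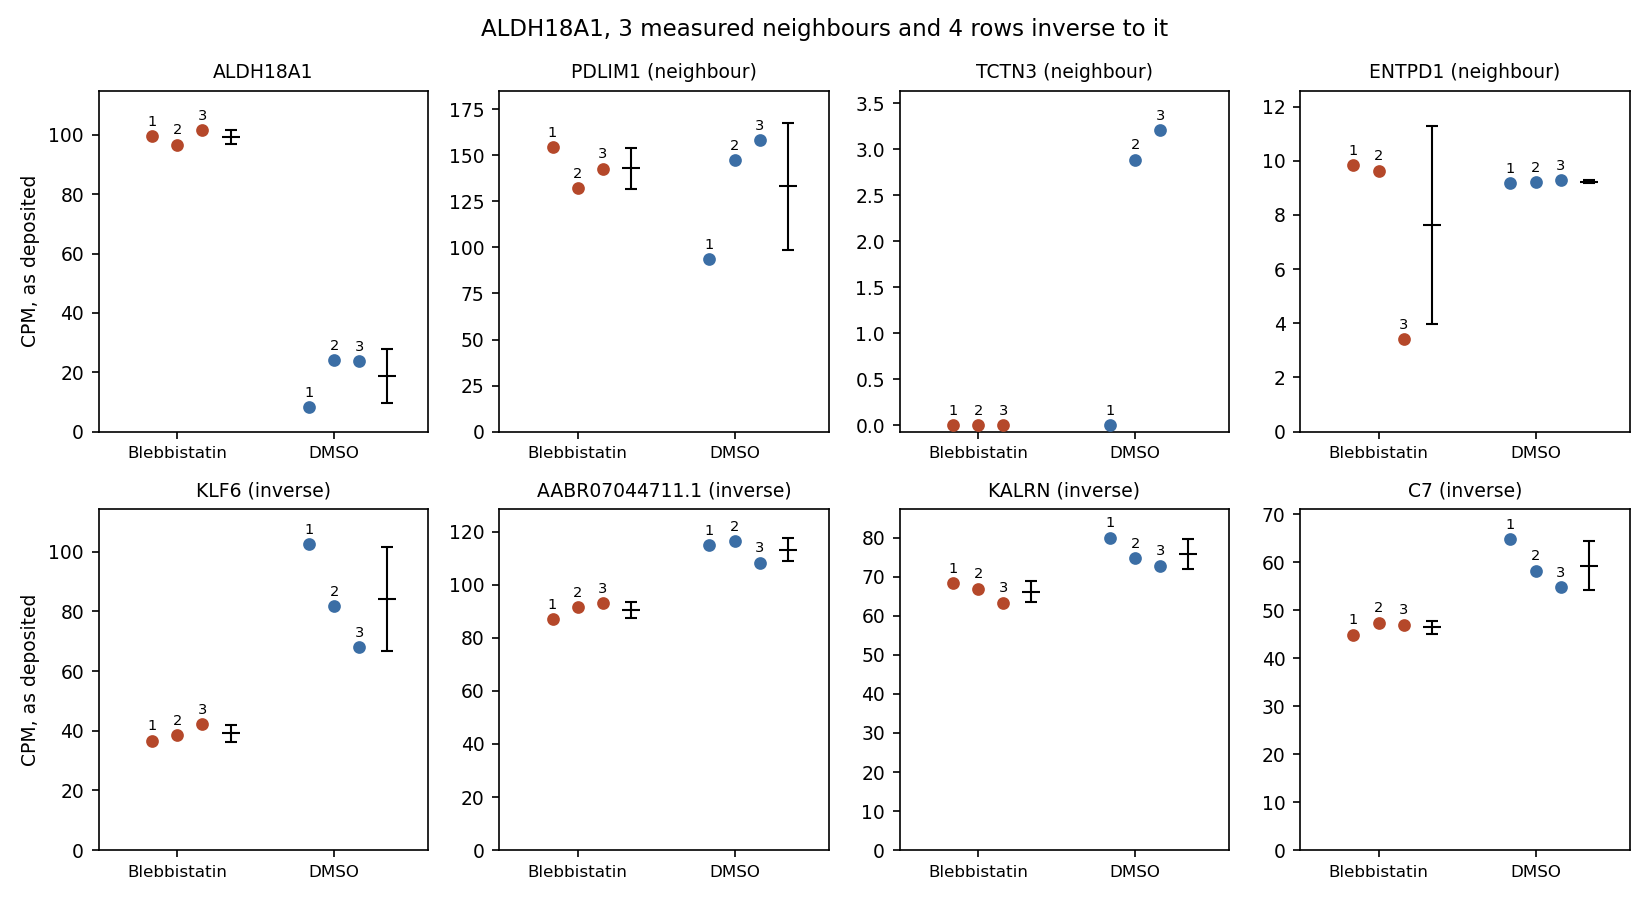
CPM as deposited (vertical axes) in the 3 blebbistatin and 3 DMSO libraries for ALDH18A1, 3 neighbours with a row, and 4 rows inverse to it; points are libraries with replicate numbers, bars are means ± SD (n = 3), left out where a library is listed at 0. TCTN3 is at 0 in 4 libraries, and KLF6 is lower by 44.9 CPM on average with blebbistatin.

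Rows whose log2 levels followed Aldh18a1 most closely over the 6 libraries were Rufy4 (Pearson r = 0.987), Fam229a (0.985), Ccdc163 (0.983), Bin3 (0.980) and Hes1 (0.978). All 5 were lowest in DMSO replicate 1 and had all blebbistatin libraries above all DMSO libraries, which a correlation with Aldh18a1 over 6 libraries selects for. Hes1, a transcriptional repressor downstream of Notch, was at 57.0, 45.4 and 57.5 CPM with blebbistatin and at 13.3, 29.3 and 29.4 CPM with DMSO. Fam229a was at 0.42, 0.348 and 0.487 CPM with blebbistatin, and with DMSO it was listed at 0 in replicate 1 and at 0.0503 and 0.0648 CPM in replicates 2 and 3. Among the other proline genes the same r was 0.734 for Oat, 0.477 for Prodh, 0.473 for Pycr1 and -0.702 for Aldh4a1.

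Genes around the pathway were tested with limma on log2 values over the whole table, with Benjamini-Hochberg adjustment over 15204 rows. The 7 lists of neighbouring enzymes, transporters, collagen and amino acid response genes hold 186 rows, of which 171 could be tested. None passed the adjusted threshold, where 0.0197% of all rows did, 0.00658% higher and 0.0132% lower. At an unadjusted p under 0.05 there were 3 higher and 1 lower, 2.34% of the listed rows against 1.51% of all tested rows (0.73% higher and 0.776% lower). The groups did not overlap for 9 listed rows, 7 with blebbistatin above and 2 below, where the shares over all rows were 3.62% and 2.48%. Of the 171, 86 had a positive and 85 a negative log2 fold change, with a median of 0.001 beside 0.0025 over all rows, 50.4% of which were positive. The listed genes named in what follows had limma adjusted p-values of 0.991 to 0.994.

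Proline and hydroxyproline enzymes beyond the 5 numbered 11 tested rows, 5 positive and 6 negative, with a median of -0.13. Without DMSO replicate 1 that median was 0.029. Eprs, which charges tRNA with proline and glutamate, was at 744, 806.1 and 783.5 CPM with blebbistatin and 1177, 807.6 and 745.3 CPM with DMSO. Dpp4, a peptidase that cuts after proline, had a log2 fold change of -1.07 ± 0.45 at levels of 0.226 to 0.357 CPM with blebbistatin and 0.436 to 1.19 CPM with DMSO. Grhpr, which acts late in hydroxyproline breakdown, had 0.47 ± 0.27, and Fap, another proline-specific peptidase, -0.21 ± 0.18. Only Dpp4 had groups that did not overlap.

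For ornithine, arginine and polyamine enzymes 15 of 25 tested rows were positive, with a median of 0.016. Nos2, the inducible nitric oxide synthase, had a log2 fold change of -1.37 ± 0.64 at under 1 CPM in every library. Arg2, the mitochondrial arginase that supplies ornithine, had -0.94 ± 0.47, also under 1 CPM. Gatm, which starts creatine synthesis, was at 36.2, 37.6 and 35.2 CPM with blebbistatin and 19.9, 34.5 and 32.7 CPM with DMSO. Odc1, which commits ornithine to polyamines, was at 170.8, 164.1 and 172.3 CPM with blebbistatin and 157.9, 156.1 and 167.9 CPM with DMSO. Oaz1, the antizyme that restrains Odc1, had 0.35 ± 0.24. Gatm and Nos2 had groups that did not overlap, Gatm higher and Nos2 lower with blebbistatin.

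Among 23 tested glutamate and glutamine enzymes, the substrate side of Aldh18a1, 10 were positive and the median was -0.013. Glud1, which links glutamate to the citric acid cycle, was at 221.6 to 233.3 CPM with blebbistatin and 208.7 to 239 CPM with DMSO. Log2 fold changes in this list ran from -0.295 to 0.315. The 4 with the lowest p were Gpt2 (0.15 ± 0.12), Aldh5a1 (0.32 ± 0.26), Gclm (0.17 ± 0.14) and Oplah (-0.18 ± 0.15). In Gpt2, a mitochondrial alanine aminotransferase, the groups did not overlap, with 27.4 to 29.2 CPM with blebbistatin and 22.3 to 26.8 CPM with DMSO.

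Of 30 tested transporters for these amino acids, 11 were positive and 19 negative, with a median of -0.036. Slc7a1, an arginine and ornithine importer of the cell membrane, was at 133.5, 147.5 and 105.2 CPM with blebbistatin and at 294.3, 163.0 and 133.5 CPM with DMSO, a log2 fold change of -0.58 ± 0.32. Slc25a15, the mitochondrial ornithine carrier, had -0.36 ± 0.26, and it too was highest in DMSO replicate 1. Slc6a15 had -0.57 ± 0.32. Slc6a17 had 0.19 ± 0.13, with 30.8 to 33.0 CPM with blebbistatin and 26.2 to 28.4 CPM with DMSO. Slc6a17 and Slc1a3, a glutamate importer, had groups that did not overlap, with blebbistatin above.

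The list of collagen chains and of proteins that modify, fold, cross-link or cut collagen had the narrowest range of log2 fold changes of the 7 lists, -0.12 to 0.25. Of 27 tested rows 17 were positive, and the median was 0.032. Col1a1 was at 18800, 23850 and 24190 CPM with blebbistatin and at 24450, 23940 and 18910 CPM with DMSO. P4ha1, a catalytic subunit of prolyl hydroxylase, was at 403.1, 363.8 and 358.1 CPM with blebbistatin and 316.7, 351.7 and 405.9 CPM with DMSO. For both genes blebbistatin replicate 1 and DMSO replicate 3 had nearly the same level. The 4 with the lowest p were Crtap (CRTAPL1 in the table; 0.25 ± 0.18), Col5a1 (-0.12 ± 0.14), Col1a2 (-0.11 ± 0.13) and Plod1 (0.13 ± 0.15), and the groups overlapped for all 27.

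The ALDH superfamily beyond Aldh18a1 and Aldh4a1 had 16 tested rows, 7 of them positive, with a median of -0.001. Aldh1b1, a mitochondrial aldehyde dehydrogenase, had a log2 fold change of 1.04 ± 0.39, the highest of all listed rows, at 0.885 to 1.1 CPM with blebbistatin and 0.265 to 0.713 CPM with DMSO. Aldh1l2, a mitochondrial enzyme of folate metabolism, had -0.18 ± 0.14, and Aldh1a1 had -0.35 ± 0.29. Only Aldh1b1 had groups that did not overlap.

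**Figure D4:**
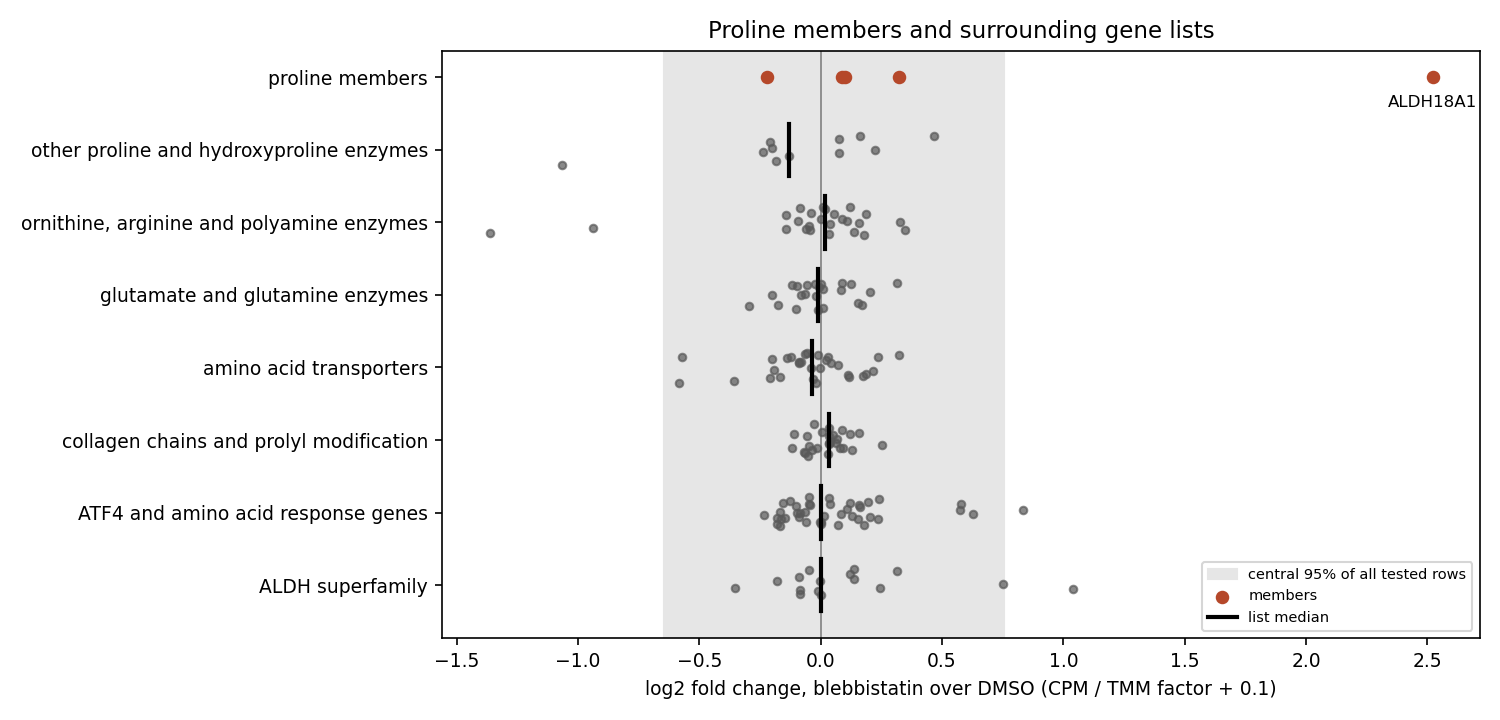
Log2 fold change, blebbistatin over DMSO (horizontal axis, CPM divided by a TMM factor plus 0.1), of the 5 proline members and of each tested gene in 7 lists; black bars are list medians and the grey band holds the central 95% of all 15204 tested rows, -0.648 to 0.755. ALDH18A1 lies at 2.52, and the list medians lie between -0.13 and 0.032.

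In mammals ALDH18A1 and PYCR1 are known targets of ATF4, the factor that raises amino acid synthesis genes when amino acids run short. ATF4 binds a composite site with the core TGATGNAA (N is any base; on the other strand TTNCATCA). RefSeq promoter windows of assembly GRCr8, from 250 bases before to 50 after the start, were matched for Pycr1, Oat and Aldh4a1. No window was matched for Aldh18a1 or Prodh, so their promoters were not searched. The core was present in the window of Pycr1 and in 10 of 38 windows of the ATF4 and amino acid response list. It was also in 3 of 33 transporter windows (Slc1a4, Slc38a1 and Slc7a1) and in 1 of 22 windows of glutamate and glutamine enzymes. Of all 33469 windows, 3.98% held it. Its sequence is printed for Pycr1, for a pair of response genes and for a pair of transporters, so that the site can be set beside the levels of the same genes. Each line is a 30-base stretch read along the gene's strand with the core in capitals, and a match does not show that the factor binds.
Pycr1: ggtcctgtgtaTGATGCAAtgtacaaggct
Chac1: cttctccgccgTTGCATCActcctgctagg
Trib3: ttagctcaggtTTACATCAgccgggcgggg
Slc1a4: cgcctccagcgTTGCATCAtccagccagca
Slc38a1: gggggaaactcTGATGCAAccaaccagtcc
The Pycr1 stretch lies at chr10:106420925-106420954 on the minus strand, and its core begins 131 bases before the start. Those of Chac1 (chr3:126795953-126795982, plus strand) and Trib3 (chr3:161275536-161275565, minus strand) begin 167 and 21 bases before it. Those of Slc1a4 (chr14:98761779-98761808, minus strand) and Slc38a1 (chr7:129681525-129681554, minus strand) begin 235 and 142 bases before it.

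Genes whose windows are printed above overlapped between the groups, and so did Atf4 and Asns. Atf4 itself was at 430, 377.5 and 408.3 CPM with blebbistatin and at 259.7, 411.6 and 436.5 CPM with DMSO, a log2 fold change of 0.13 ± 0.18. Trib3, a pseudokinase that restrains ATF4, was at 68.1, 61.4 and 72.7 CPM with blebbistatin and 41.6, 61.5 and 72.8 CPM with DMSO. Chac1, which degrades glutathione, was at 43.4, 35.1 and 42.5 CPM with blebbistatin and 24.0, 38.3 and 46.3 CPM with DMSO. These 3 were lowest in DMSO replicate 1, and DMSO replicates 2 and 3 lay close to the blebbistatin libraries. Asns, the asparagine synthetase, was at 199.5, 229.3 and 227.2 CPM with blebbistatin and 208.9, 225.0 and 198.9 CPM with DMSO. Slc1a4 and Slc38a1 had log2 fold changes of -0.018 ± 0.13 and -0.14 ± 0.20. Slc7a1, whose window held the core but is not printed, had -0.58 ± 0.32, and its groups overlapped.

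Over the whole ATF4 and amino acid response list, 22 of 41 tested rows were positive and 19 negative, with a median of 0.003. Ddit4, a repressor of mTOR signalling, was at 47.8, 43.0 and 51.6 CPM with blebbistatin and at 16.7, 30.8 and 33.3 CPM with DMSO, a log2 fold change of 0.83 ± 0.23. Cebpb, a leucine zipper factor, was at 83.4, 97.6 and 124.6 CPM with blebbistatin and 50.7, 79.3 and 70.1 CPM with DMSO (0.58 ± 0.20). Both had groups that did not overlap, and neither passed the adjusted threshold (limma adjusted p = 0.991 for both). Ddit3 (0.63 ± 0.43) and Eif2ak3 (-0.17 ± 0.12), the stress factor CHOP and the kinase PERK, overlapped between the groups.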

How the data were processed

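RNA was sequenced from 3 blebbistatin and 3 DMSO libraries; 12 chromatin samples were left out. The authors deposited CPM, and each column has the same total. Tools listed, without roles, in the submitters' processing notes are MACS2 2.1.0, BWA, Trim Galore, edgeR 3.20.9, StringTie 1.3.4 and HISAT2 2.1.0, and the build is rn6; annotation and strand setting are not given in the sources used here. Depth was read from the smallest step between values, 0.0158 to 0.0168 CPM; with a tolerance of 0.02, 99.1 to 99.2% of the values above 0 were whole multiples of it. The deposited values are CPM and counts were not rebuilt from them for testing, so no count test was run. A floor of 3 reads is 0.0474 to 0.0503 CPM and covers counting error only.

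Rows reaching 0.162 CPM, which 10 reads give at median depth, in 3 libraries entered limma 3.58.1 in R 4.3.3 (trend, robust, two-sided, no block) on log2(CPM / TMM factor + 0.1). TMM factors (unweighted, trims 0.3 and 0.05) ran from 0.928 to 1.03. The added 0.1 understates changes of low rows. Calls needed a Benjamini-Hochberg adjusted p under 0.05 over 15204 rows. All 5 proline genes passed the filter. Means ± SD are of CPM as deposited. Steps were tested on simulated data.

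The members and lists were chosen with earlier results of these data known. Named genes are the 5 members, the paralogs, up to 4 per list with the lowest p, the 5 rows most like Aldh18a1, the 5 most constant sums with it and 2 neighbours per side, of which some genes are not reported here. Atf4, Asns, Trib3, Chac1, Slc1a3, Slc1a4, Slc38a1, Eprs, Odc1, Glud1, Col1a1 and P4ha1 were added after their values were seen. Row names matched 17134 RefSeq symbols and 1820 synonyms. With a library left out, the filter asked for as many libraries as the smaller group had. Alternatives covered scaling, filter, pseudocount, robust fitting, threshold, replicate block and left-out libraries.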

Additional observations from a re-analysis of the deposited data

How the results depend on the processing

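The log2 fold change of Aldh18a1 ran from 2.45 to 2.57 under other scalings, filters and pseudocounts and with the replicate block, and from 2.05 to 2.76 with each library left out. That of Pycr1 ran from -0.038 to 0.235, that of Prodh from -0.0596 to 0.785, that of Oat from 0.0192 to 0.141 and that of Aldh4a1 from -0.313 to -0.0574 with a library left out. No listed pathway row was called by limma under any alternative run.

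Over all rows limma called 3, 1 higher and 2 lower. None of the 5 proline genes is among these 3 rows, and no p-value is given for those genes. Higher calls numbered 0 without a filter, with pseudocounts of 0.5 and 1 CPM and with the replicate block, which left 2 calls in all. Leaving out each library gave 3 to 9 calls, 0 to 4 higher and 3 to 6 lower; there were 9 without DMSO replicate 1, 7 without DMSO replicate 3 and 5 without DMSO replicate 2 or blebbistatin replicate 3. Rows inverse to Aldh18a1 numbered 166 at an r of at most -0.8, with a lowest coefficient of variation of the sum of 6.87% (Fam111a). Without DMSO replicate 1 they numbered 150, with 1.55% (Ywhag). Fam111a was at 295.3 to 374.9 CPM and Ywhag at 260.2 to 384.4 CPM, levels that lower such values by themselves. Plod1 changed sign with a library left out (-0.00599 to 0.209). Of 401 values of 27 named list genes, 400 had an unchanged sign and call, and 92 of 98 list medians moved by less than the replicate spread. The larger moves included the median of proline and hydroxyproline enzymes beyond the 5. It was 0.029 without DMSO replicate 1, -0.036 without blebbistatin replicate 2 and -0.027 with at least 1 CPM in 3 libraries. Except for fewer samples or rows by construction, the cause was not tested.

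Libraries with the same number had deviations (from the group mean) that correlated at -0.29, 0.054 and -0.092. With 3 libraries per group, these values cannot settle whether equal numbers mark paired samples. The highest correlation, 0.38, was between blebbistatin replicate 1 and DMSO replicate 3. Prodh rested on under 200 reads per library, and rows under 1 CPM on fewer still.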

Other observations

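Beyond the nearest neighbours of Aldh18a1, a further row of the same stretch was listed at 0 in some libraries. Ccnj, a cyclin family gene and the next measured gene after Entpd1 in the RefSeq order, stood at 6.44 and 6.53 CPM in blebbistatin replicates 1 and 2 and was listed at 0 in replicate 3. In DMSO replicate 1 it was listed at 0, and in replicates 2 and 3 it was at 6.1 and 6.37 CPM. Its zeros fell in libraries of both groups and did not follow Aldh18a1. Ccnj was chosen after its values were seen. The next measured genes, Zfp518a and Blnk, were above 0 in all 6 libraries, with Zfp518a at 18.1, 27.0 and 20.6 CPM with blebbistatin and 27.3, 22.9 and 17.3 CPM with DMSO.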
